A study of Sus scrofa with 12 samples.

Results

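The 8 genes of the porcine CCT chaperonin, TCP1, CCT2, CCT3, CCT4, CCT5, CCT6A, CCT7 and CCT8, were taken by their exact symbols from a table of 29884 genes, and all 8 were above the filter on low values that left 12260 genes for testing. TCP1 is the gene whose exons give rise to circ-TCP1, the circular RNA that the study pairs with miR-183, and the question here was whether its linear mRNA level moved with that of the other 7 subunits. The mRNA was measured in the left ovaries of 6 sows slaughtered 4 days after delivery number 4. The 3 SLS (small litter size) sows, ZD2, ZD3 and ZD12, came from a group with 8.48 ± 0.53 piglets per litter, and the 3 LLS (large litter size) sows, ZD5, ZD7 and ZD8, from a group with 16.19 ± 0.43. The study gives its results as mean ± SEM. No treatment or genetic change was described for either group, and the sows were of a commercial herd. By the ZD numbers, each ovary gave 1 library of total RNA without ribosomal RNA and 1 library of small RNA.

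CCT, also named TRiC, is the chaperonin of the cytosol, a double ring in which each ring holds 1 copy of every subunit. Newly made proteins enter the central cavity and fold there while the subunits bind and hydrolyse ATP. Actin and tubulin are its best known clients, and the WD40 repeat proteins CDC20 and FZR1, which activate the anaphase-promoting complex, and the G protein beta subunits are folded there too. The subunits are paralogs with a shared fold, and each recognises its clients through its own apical domain. In the order alpha to theta the subunits are encoded by TCP1, CCT2, CCT3, CCT4, CCT5, CCT6A, CCT7 and CCT8.

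In the Sscrofa11.1 annotation the members lay on 6 chromosomes and shared no locus. TCP1 was at chr1:7590140-7600709 on the plus strand, with 12 exons and a longest transcript of 1936 nt. CCT2 was at chr5:33858514-33873596 and CCT3 at chr4:93733967-93753340, both on the plus strand. Chromosome 3 held 3 members, CCT4 at chr3:79924338-79941926 on the plus strand, and CCT6A at chr3:16843801-16858819 and CCT7 at chr3:69527238-69540489 on the minus strand. CCT5 was at chr16:72211452-72223202 and CCT8 at chr13:192407831-192423466, both on the minus strand.

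TCP1 was the member whose annotated start lay closest to that of another gene. Its annotated start was 103 bases from that of MRPL18, a protein of the large mitochondrial ribosomal subunit, which is read from the opposite strand. The 102 intergenic bases between the 2 genes, at chr1:7590038-7590139 on the plus strand and 59.8% G or C, are shown because the annotated starts of both genes flank them. The capitals mark the complement of a CCAAT box and the complement of CCGGAAG, a sequence of the kind bound by ETS factors:
MRPL18 to TCP1: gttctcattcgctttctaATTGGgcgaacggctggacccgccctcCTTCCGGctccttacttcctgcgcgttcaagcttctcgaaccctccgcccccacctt
Windows of 300 bases, from 250 before to 50 after each annotated start, were searched on both strands for 3 motifs that do not contain one another. CCT7 is annotated as a partial gene, so its window may not lie at its true start. CCAAT was found for 3 members (TCP1, CCT3 and CCT6A) and in 35.7% of 20641 promoters of that length. CCGGAAG was found for 2 members (TCP1 and CCT8) and in 10.6% of those promoters. The core of the heat shock element, GAANNTTC, was found for 0 of the 8 members and in 6.47% of the promoters, which says only that these letters are not in these windows.

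Some of the gene models limit what a value can stand for. The exons of TCP1 that form circ-TCP1, 7 and 8, make up 15.7% of its longest transcript, so that reads of the circle within them are counted with the linear mRNA. The 3′ end of TCP1 overlapped ACAT2, a cytosolic thiolase read from the other strand, by 94 bases at chr1:7600616-7600709. CCT3 overlapped TSACC by 1063 bases and CCT5 overlapped LOC110257272 by 126 bases, also on opposite strands, and both partners were at no more than 0.249 and 0.415 FPKM in any ovary. Whether the counting used the strand is not given in the sources used here, so reads of overlapping partners cannot be told apart. CCT7 is annotated as a partial gene, which affects a level per length. The CCT6A transcript had 2 near-identical stretches elsewhere, the longer at chrX:47311952-47313671 with 92.8% identity over 1742 aligned positions, gaps included, and the level of CCT6A is uncertain to that extent. No other member had a copy of at least 300 bases at 90% identity or more.

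The gene libraries held between 32272803 reads (ZD8) and 60903269 reads, and the small RNA libraries between 3537619 and 9854086. The members were deeply covered, with between 2428 reads (CCT6A in ZD8) and 16053 reads (CCT3 in ZD7) per gene and ovary. ZD8 stood apart from the other ovaries. The summed level of 7 luteal markers was 124 FPKM in ZD8, where the other 5 ovaries had 9167 to 12191 FPKM, with 6 of the 7 markers below all other ovaries and none at 0 in ZD8. All 8 oocyte markers were highest in ZD8, where they summed to 124 FPKM against 6.31 to 22.6 FPKM elsewhere. The 4 markers of cycling cells summed to 23.1 FPKM in ZD8 against 34.8 to 61.5 FPKM elsewhere. The 2 theca markers and all 4 leukocyte markers were also highest in ZD8, and all 4 endothelial markers were lowest there. Granulosa, smooth muscle, epithelial and stromal markers did not all lie on 1 side of the other ovaries. The part of this difference in makeup in any result was not tested, and the main values are also given without ZD8. In whole ovaries, fewer cells of a type and less RNA per cell cannot be told apart. Each SLS or LLS library came from 1 sow.

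All 8 subunits were well expressed in every ovary. FPKM is reads per length of the gene and per depth of the library, so that levels can be set side by side between genes. This is less certain for CCT7, a partial gene model, and for CCT6A, with its near-identical stretches elsewhere. CCT7 had the highest mean level over the 6 ovaries, 123 ± 18.2 FPKM (SD, n = 6), followed by CCT3 with 118 ± 20.7 FPKM. CCT7 was above CCT3 in 3 of 6 ovaries, so these neighbours were not separated beyond their spread. TCP1 followed with 76.2 ± 11.6 FPKM and was below CCT3 in all 6 ovaries. CCT8 (64.7 ± 15.8 FPKM), CCT2 (64.3 ± 10.3 FPKM), CCT4 (63.6 ± 7.06 FPKM) and CCT5 (59.6 ± 12.3 FPKM) followed and differed from each other by less than their SD. TCP1 was above CCT8 in 5 of 6 ovaries. CCT6A had the lowest mean, 44.0 ± 11.3 FPKM, and was below CCT5 in 5 of 6 ovaries.

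The SD of log2(FPKM + 1) over the 6 ovaries was below the median of all tested genes, 0.40, for 8 of 8 members. It was lowest for CCT4, for which 3.69% of tested genes had an SD as low, and highest for CCT6A, for which 44.9% did. Without ZD8 the SD was below the median of all genes, 0.29, for 7 of 8 members, with CCT5 just above it (0.31). The share of genes with an SD as low was then lowest for CCT3 (4.69%) and highest for CCT5 (53.8%), and 14.3% for CCT4. These are descriptions of 6 libraries that share their depth with all other genes.

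TCP1, the alpha subunit, measured 74.7 FPKM in ZD2, 82.1 in ZD3 and 93.9 in ZD12 of the SLS group, and 65.7 in ZD5, 78.9 in ZD7 and 62.0 in ZD8 of the LLS group. The highest LLS ovary, ZD7, lay between the SLS ovaries ZD2 and ZD3, so the groups overlapped. The means were 83.6 ± 9.64 FPKM in SLS and 68.9 ± 8.92 FPKM in LLS (SD, n = 3 each). The log2 fold change (LLS minus SLS, on log2(FPKM + 1)) was -0.28 with an SE of 0.28, which did not pass the test (adjusted p = 0.999, limma, and p = 0.2, exact two-sided permutation test). The smallest p that 3 ovaries against 3 allow is 0.1. Without ZD8 the log2 fold change of TCP1 was -0.21.

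**Figure D1:**
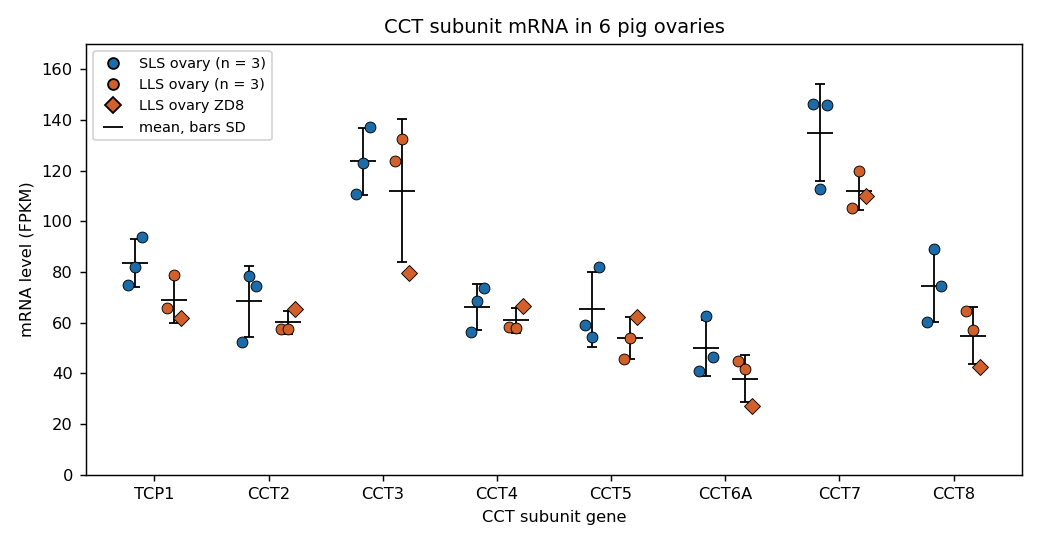
Level of each CCT subunit mRNA (FPKM, linear axis from 0) in the 6 ovaries, with blue points for SLS, orange points for LLS and a diamond for ZD8. Horizontal marks are group means and bars are SD (n = 3). For all 8 genes the SLS and LLS points overlap, and ZD8 is the lowest ovary for TCP1, CCT3, CCT6A and CCT8.

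CCT8, the theta subunit, had the largest fitted difference of the 8 with 6 ovaries, and CCT5 had it without ZD8. It measured 60.4, 88.9 and 74.3 FPKM in ZD2, ZD3 and ZD12 and 64.7, 57.2 and 42.6 FPKM in ZD5, ZD7 and ZD8. ZD5 was above ZD2, and ZD8 was the lowest of all 6. The log2 fold change was -0.44 with an SE of 0.30 (adjusted p = 0.999, limma), and -0.27 without ZD8. CCT6A, the zeta subunit, followed with 41.1, 62.5 and 46.7 FPKM in the SLS ovaries and 44.8, 41.8 and 27.3 FPKM in the LLS ovaries. Here too the groups overlapped, and ZD8 was far below the rest. Its log2 fold change was -0.40 with an SE of 0.31, and -0.18 without ZD8.

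CCT3, the gamma subunit, owed its sign to 1 ovary. It was at 111, 123 and 137 FPKM in ZD2, ZD3 and ZD12 and at 124, 132 and 79.8 FPKM in ZD5, ZD7 and ZD8. ZD5 and ZD7 lay within the SLS range and ZD8 well below it. The log2 fold change of CCT3 was -0.17 with an SE of 0.33 and turned to 0.055 without ZD8. CCT7, the eta subunit, was at 146, 113 and 146 FPKM in the SLS ovaries and 105, 120 and 110 FPKM in the LLS ovaries, with ZD3 among the LLS values. Its log2 fold change was -0.26 with an SE of 0.30 and -0.25 without ZD8.

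The beta, delta and epsilon subunits were not lowered in ZD8. CCT2 was at 52.5, 78.3 and 74.6 FPKM in the SLS ovaries and at 57.6, 57.4 and 65.4 FPKM in the LLS ovaries, a log2 fold change of -0.17 with an SE of 0.28 (-0.23 without ZD8). CCT4 was at 56.3, 68.6 and 73.7 FPKM against 58.4, 57.9 and 66.7 FPKM, a log2 fold change of -0.11 with an SE of 0.27 (-0.17 without ZD8). CCT5 was at 59.3, 54.4 and 82.1 FPKM against 45.8, 54.0 and 62.2 FPKM, a log2 fold change of -0.26 with an SE of 0.29 (-0.36 without ZD8). All LLS ovaries lay within the SLS range for CCT2 and CCT4, ZD5 and ZD7 lay below it for CCT5, and ZD8 was the highest LLS ovary for all 3. These values also rested on single SLS ovaries, with log2 fold changes of -0.06 for CCT2 without ZD3, and of -0.03 for CCT4 and -0.08 for CCT5 without ZD12.

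None of the 8 members was called, as with 0% of all 12260 genes tested (limma, called where the adjusted p was under 0.05 and the log2 fold change was beyond 1 in either direction). At an unadjusted p under 0.05 limma gave 216 genes and edgeR's quasi-likelihood test on recovered reads 220, and neither called a gene after adjustment. DESeq2 on the same reads called 20 genes and limma with array weights 13, with 0 of 8 members in either. Without ZD8 0.167% of genes were called (20 of 11985) and again 0 of 8 members. The groups did not overlap for 0 of 8 members, against 3.17% of all genes with every LLS ovary below every SLS ovary and 1.95% with every LLS ovary above. Without ZD8 the remaining LLS ovaries lay below every SLS ovary for 1 of 8 members, CCT5, and for 11.7% of all genes. The fitted difference was below 0 for 8 of 8 members and for 47.4% of all genes. The median log2 fold change was -0.26 over the members and 0.02 over all genes, and 18.7% of all genes lay at or below the median of the members. Without ZD8 these medians were -0.22 and -0.10. The count below 0 was 7 of 8 without ZD8 and with array weights (CCT3 above 0 in both), and 7 of 8 with quantile normalization (CCT4 above 0). The single members share the same 6 ovaries, so their common sign is 1 pattern over ovaries and not 8 independent results.

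The makeup of the subunit pool was then compared between ovaries, with the limits given above for the levels of CCT7 and CCT6A. The summed level of the 8 members ran from 516 FPKM in ZD8 to 728 FPKM in ZD12, with 601 FPKM in ZD2, 671 in ZD3, 566 in ZD5 and 600 in ZD7. TCP1 made up 12.4%, 12.3% and 12.9% of this sum in ZD2, ZD3 and ZD12 and 11.6%, 13.2% and 12.0% in ZD5, ZD7 and ZD8. Its highest share was 1.13 times its lowest, the narrowest range of the 8 members over 6 ovaries. Without ZD8 it was still 1.13 times, but CCT4 was narrower with 1.10 times in place of 1.38. The share of CCT6A had the widest range, from 5.29% in ZD8 to 9.32% in ZD3, or 1.76 times (1.45 without ZD8). The other 6 shares ranged over 1.38 to 1.61 times. ZD8 lay outside the range of the other 5 for 6 of the 8 members. It was above them for CCT4 (12.9% against 9.36% to 10.3%), CCT2 and CCT5, and below them for CCT3 (15.5% against 18.3% to 22.1%), CCT6A and CCT8.

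**Figure D2:**
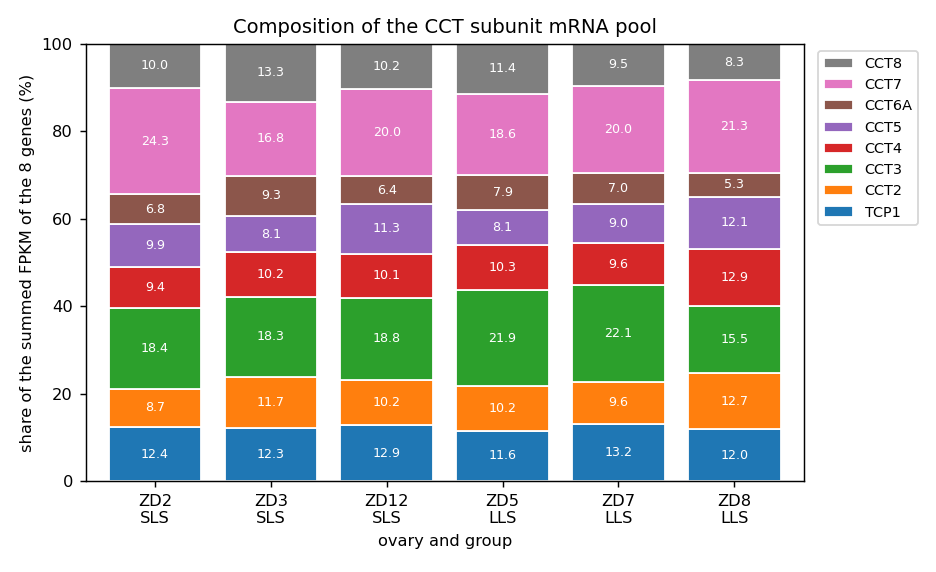
Share of each CCT subunit in the summed FPKM of the 8 genes (percent, printed in the bars) for each ovary, grouped as SLS and LLS. The share of TCP1 stays between 11.6% and 13.2%, and that of CCT6A ranges from 5.29% to 9.32%.

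TCP1 was also measured relative to its partners. The log2 level of TCP1 minus the mean of the other 7 was 0.12 in ZD2, 0.02 in ZD3 and 0.15 in ZD12, and -0.02 in ZD5, 0.21 in ZD7 and 0.04 in ZD8. The SLS and LLS values overlapped. Their group means were 0.10 ± 0.07 and 0.08 ± 0.12 (SD, n = 3), a difference of -0.02, smaller than the SD of either group. Leaving out 1 ovary each moved it between -0.08 (without ZD7) and 0.03 (without ZD5), and it was -0.003 without ZD8. The range of this relative level over the 6 ovaries was 0.23 for TCP1, and 0.50 (CCT4) to 0.85 (CCT6A) for the other members measured against their own partners. Without ZD8 CCT4 had the smallest range, 0.13, below the 0.23 of TCP1, and the others had 0.37 (CCT3) to 0.68 (CCT7). No p is given for these values, since they are built from the members themselves.

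The linear level of TCP1 was correlated with that of each other subunit over the 6 ovaries, a family of 7 relations. Pearson's r was above 0 for 7 of 7 and for 48.2% of all genes correlated with TCP1. The median r was 0.65 over the 7 subunits and -0.03 over 12259 genes. No single relation passed the exact permutation test, in which 2.61% of all genes had a p under 0.05 and the smallest adjusted p of any gene was 0.942. CCT3 came closest, with r = 0.75 (exact p = 0.0708, adjusted p = 0.942 over all genes) and rho = 0.71 (exact p = 0.136, adjusted p = 1). An r of at least that of CCT3 was found for 3.98% of all genes. Without ZD8 the r of CCT3 was 0.56, and 29.9% of all genes had at least that, while for CCT5 and CCT4 the shares at or above their own r without ZD8 were 2.41% and 6.48%. For CCT8 r was 0.71 (exact p = 0.103) and rho 0.71 (exact p = 0.136). For CCT6A the values were r = 0.65 (exact p = 0.136) and rho = 0.77 (exact p = 0.103). For CCT7 they were r = 0.65 (exact p = 0.175) and rho = 0.54 (exact p = 0.297). CCT5, with r = 0.58 (exact p = 0.215), had the lowest rank correlation, rho = 0.26 (exact p = 0.658). CCT2 gave r = 0.48 (exact p = 0.335) and rho = 0.43 (exact p = 0.419), and CCT4 r = 0.45 (exact p = 0.344) and rho = 0.49 (exact p = 0.356). All 7 adjusted p-values were 0.942 for r and 1 for rho (Benjamini-Hochberg, exact permutation test).

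These relations rested on few ovaries. ZD12 held the highest and ZD8 the lowest TCP1 level, and without both r was 0.16 for CCT3, 0.26 for CCT7, 0.39 for CCT8, 0.47 for CCT6A, 0.54 for CCT4, 0.55 for CCT2 and 0.70 for CCT5. Without ZD8 alone r was lower for CCT3 (0.56), CCT8 (0.45), CCT7 (0.58) and CCT6A (0.29), of which 3 were the subunits at their lowest in ZD8 besides TCP1, and higher for CCT2 (0.70), CCT4 (0.81) and CCT5 (0.89). The median of the 7 was then 0.58, the median of all genes was 0.34, and 72.8% of all genes were above 0 over the same 5 ovaries. Without ZD12 r was -0.05 for CCT4 and -0.04 for CCT5, both reversed, and 0.22 for CCT2. After the group means were removed from every gene, the median r was 0.36 in place of 0.65, with values between 0.28 (CCT4) and 0.77 (CCT3). It was above 0 for 7 of 7, and for 48.6% of all genes after the same removal.

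**Figure D3:**
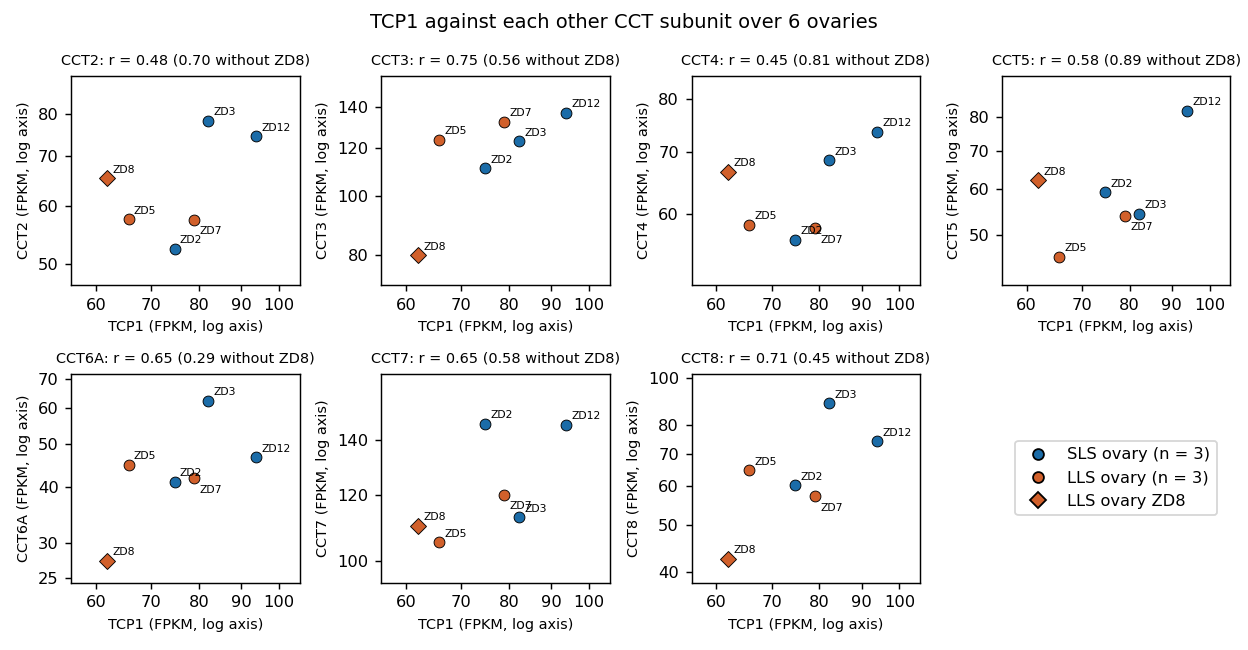
Level of TCP1 (x axis, FPKM, log axis) against each of the other 7 subunits (y axes, FPKM, log axes) with 1 point per ovary, blue for SLS, orange for LLS and a diamond for ZD8. ZD8 at the lower left draws the points out for CCT3, CCT6A and CCT8, and ZD12 at the right does so for CCT5 and CCT4, with r printed for 6 ovaries and for 5 without ZD8.

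Among the 28 pairs of subunits the median r was 0.45 over the 6 ovaries, and 25 pairs were above 0. The range ran from -0.14 (CCT5 with CCT6A) to 0.98 (CCT6A with CCT8), and 10 pairs lay between -0.2 and 0.2. TCP1 had the highest mean r with its partners, 0.61, and the other members had means of 0.28 (CCT7) to 0.50 (CCT8). Without ZD8 the mean of TCP1 was again 0.61, but CCT4 (0.66) had a higher mean and CCT2 (0.61) was level with TCP1. The lowest r of TCP1 with any partner was 0.45 over 6 ovaries, 0.29 without ZD8 and -0.05 (CCT4) without ZD12. CCT6A and CCT8 kept an r of 0.95 without ZD8. An r as high as theirs over the 6 ovaries was found for 0.163% of all genes with CCT6A and for 0.0979% with CCT8. CCT2 and CCT4 had r = 0.94, and 0.95 without ZD8, and 0.302% of genes were as close to CCT2 and 0.196% as close to CCT4. CCT5 and CCT7 had r = 0.71, and 0.83 without ZD8, and 10.2% of genes were as close to CCT5 and 10.3% as close to CCT7 over the 6 ovaries.

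The pairs CCT2 with CCT4, CCT6A with CCT8 and CCT5 with CCT7 sit side by side in the ring, whose order is known as CCT2, CCT4, TCP1, CCT3, CCT6, CCT8, CCT7 and CCT5. This grouping was chosen after the values were seen, and it was not tested. The 8 pairs that sit side by side had a median r of 0.73 (0.18 to 0.98) and the other 20 pairs a median r of 0.31 (-0.14 to 0.75). Without ZD8 the medians were 0.68 and 0.48, and the ranges overlapped widely, from -0.16 to 0.95 and from -0.38 to 0.92. CCT8 with CCT7, also side by side, had r = 0.18, and -0.16 without ZD8. Pairs share their genes, libraries and depth, so the 28 values are not independent.

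**Figure D4:**
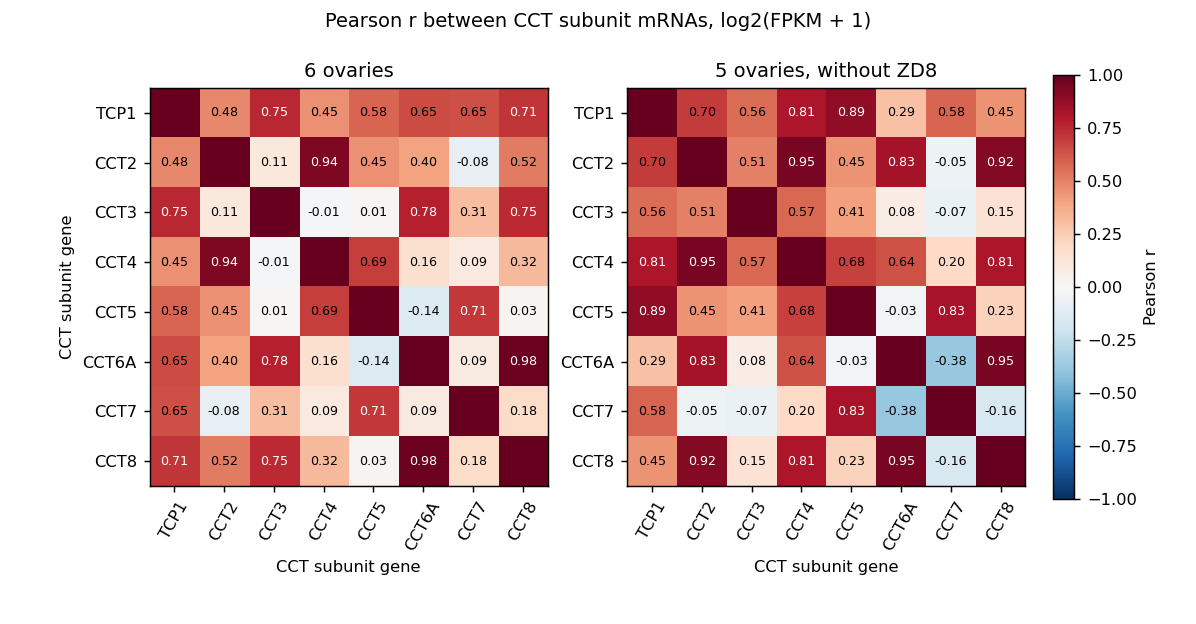
Pearson r of log2(FPKM + 1) between every pair of the 8 CCT subunits, over 6 ovaries (left) and over the 5 without ZD8 (right), with colour from -1 (blue) to 1 (red) and r printed in each square. CCT2 with CCT4 and CCT6A with CCT8 are above 0.9 in both, and the row of TCP1 is above 0 throughout, as are 48.2% of all genes with TCP1 on the left and 72.8% on the right.

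Genes whose levels were among the most like TCP1 over the 6 ovaries were HJURP (r = 0.99), which loads the centromeric histone CENP-A, IPPK (0.98), an inositol phosphate kinase, C13H21orf59 (0.97) and NOV (0.96), a matricellular protein. HJURP measured 1.72, 2.07 and 2.41 FPKM in ZD2, ZD3 and ZD12 and 1.34, 1.88 and 1.32 FPKM in ZD5, ZD7 and ZD8, which is low beside TCP1. Over the 5 ovaries without ZD8 the 5 most like genes were KLF7 (0.998), HJURP (0.99), LOC100516485 (0.99), BIRC5 (0.99), the inhibitor of apoptosis survivin, and BEX4 (0.99), so only HJURP was in both sets. KLF7 had r = -0.41 when ZD8 was included. No gene passed the exact permutation test after adjustment (adjusted p = 0.942 or above), and the 7 partners of TCP1 were in neither set.

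The markers of cycling cells, MKI67, TOP2A, CCNB1 and CDK1, are genes of proliferation and mitosis. Their median r with TCP1 was 0.82, and 0.73 without ZD8. The LLS ovaries all lay below the SLS ovaries for 3 of the 4 (3.17% of all genes), and 0 of 4 were called (limma). Summed, they ran from 42.5 to 61.5 FPKM in SLS and from 23.1 to 37.4 FPKM in LLS. Their part in the level of TCP1 or of its partners was not tested.

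miR-183, the microRNA that the study pairs with circ-TCP1, is shown with its seed (bases 2 to 8) in capitals, as the table of small RNA gives it:
miR-183: tATGGCACtggtagaattcactg
The complement of this seed, GTGCCAT, was searched in the longest annotated transcript of each member. It was found in 4 of 8, TCP1, CCT2, CCT7 and CCT8, and in 19.2% of the longest transcripts of 19981 coding genes. All 4 matches were single and lay in coding sequence. That of TCP1 was in exon 8, at chr1:7598319-7598325 on the plus strand, within the exons of the circle. The others were in exon 3 of CCT2 at chr5:33859573-33859579 (plus strand), exon 5 of CCT7 at chr3:69534538-69534544 (minus strand) and exon 12 of CCT8 at chr13:192413010-192413016 (minus strand). The matches are shown with the flanking transcript sequence to let their surroundings be compared, with the letters that pair with the seed in capitals:
TCP1: ttgtggagaccgGTGCCATggcagttagaa
CCT2: cctcttttattgGTGCCATcgctattggag
CCT7: tgctagagaaatGTGCCATgactgctctga
CCT8: aaaaggaagatgGTGCCATttccaccatag
A match describes the letters, and no target site was measured here. For circ-TCP1, the paper reports direct binding of miR-183 in a luciferase reporter assay with wild-type and mutant sites. It also reports that the levels of circ-TCP1 and miR-183 were inversely correlated. Whether the site it assayed is the match shown was not checked. With 8 related genes, nothing is read here from the share that held a match.

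miR-183 measured 84.6, 105 and 51.5 RPM in ZD2, ZD3 and ZD12 and 184, 266 and 7.37 RPM in ZD5, ZD7 and ZD8. ZD5 and ZD7 were above every SLS ovary and ZD8 was below every one, with 64 reads. Its r with TCP1 over the 6 ovaries was 0.34 (exact p = 0.521, adjusted p = 0.999 over 353 miRNAs) and rho was 0.14 (exact p = 0.803, adjusted p = 1, permutation test). Without ZD8 r was -0.63, and without ZD8 and ZD12 it was -0.18, so the sign turned with ZD8. With both tables centred on their medians r was 0.75. The share of miRNAs with an exact p under 0.05 against TCP1 was 0.567%, and miR-183 was not among them. The highest r with TCP1 was that of miR-1271-5p (0.88, exact p = 0.0222) and the lowest that of miR-299 (-0.83, exact p = 0.0403), both with an adjusted p of 0.999 (permutation test).

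The other members took either sign with miR-183 when ZD8 was included. CCT3 had r = 0.83, CCT6A 0.66 and CCT8 0.53, while CCT4 had r = -0.51, CCT5 -0.50 and CCT2 -0.30, and CCT7 was at 0.00. Without ZD8 r was below 0 for 7 of 8 members, from -0.23 (CCT6A) to -0.81 (CCT5), with CCT3 at 0.04, and it was below 0 for 69.0% of all genes over the same 5 ovaries. The members with a seed match (-0.63, -0.48, -0.71 and -0.50 for TCP1, CCT2, CCT7 and CCT8) lay within the range of those without one (-0.81 to 0.04) there. The values over 5 ovaries are given as a description with no test.

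Of the proteins that work with CCT, prefoldin captures unfolded actin and tubulin and hands them to the ring. Of its 6 genes, all tested, 0 were called (limma) and 0 had groups that did not overlap. Their median log2 fold change was -0.08 (-0.13 without ZD8) and their median r with TCP1 was 0.14, or 0.43 without ZD8. PFDN4 had the highest log2 fold change, 0.30 (SE 0.35), and 0.24 without ZD8. VBP1, the subunit prefoldin 3, had the lowest, -0.19 (SE 0.35), and turned to 0.08 without ZD8. Of the 4 helpers that bind CCT as cofactors (PDCL, PDCL2, PDCL3 and TXNDC9), 3 were tested and 0 were called, with a median log2 fold change of -0.10 (-0.03 without ZD8). PDCL3 was the highest at -0.09 (SE 0.27) and TXNDC9 the lowest at -0.11 (SE 0.40), an order that reversed without ZD8 (-0.24 and 0.20). PDCL2 was no higher than 0.03 FPKM in any ovary. The 6 tubulin cofactors, which join the folded tubulins into dimers, had a median log2 fold change of 0.03 (-0.04 without ZD8) and 0 calls. TBCC was the highest at 0.28 (SE 0.33) but at -0.02 without ZD8, and TBCD was the lowest at -0.06 (SE 0.32) and at -0.24 without ZD8.

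Of 14 actin and tubulin genes, the main clients of the ring, 10 were in the table and tested. None was called (limma), the groups overlapped for all 10, and 9 of the 10 had a log2 fold change below 0 (47.4% of all genes). Without ZD8 it was 6 of 10. Their median was -0.39 with 6 ovaries and -0.08 without ZD8, against 0.02 and -0.10 over all genes. ACTA2, smooth muscle actin, was the lowest. It measured 1098, 384 and 592 FPKM in ZD2, ZD3 and ZD12 and 196, 374 and 428 FPKM in ZD5, ZD7 and ZD8, a log2 fold change of -0.99 (SE 0.56, adjusted p = 0.999, limma) and of -1.21 without ZD8. The highest was TUBA4A, an alpha-tubulin, with a log2 fold change of 0.96 (SE 0.57) at 0.54 to 4.09 FPKM in SLS and 2.16 to 8.92 FPKM in LLS, and a log2 fold change of 0.45 without ZD8. Their median r with TCP1 was 0.51, and 0.18 without ZD8.

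Of 8 other clients, 0 were called and 5 had a log2 fold change below 0, as did 47.4% of all genes. Without ZD8 it was 7 of 8, and the median of all genes was then also below 0 (-0.10). CDC20 was the lowest with -0.78 (SE 0.32), or -0.58 without ZD8, and had r = 0.90 with TCP1 (0.82 without ZD8). It measured 20.1, 14.9 and 24.4 FPKM in SLS and 10.1, 15.7 and 8.00 FPKM in LLS, where ZD7 lay above ZD3. FZR1, its relative, was the highest with 0.14 (SE 0.34) and turned to -0.13 without ZD8.

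Of 6 other chaperonin genes, 5 were tested and 0 were called. HSPE1, the lid of the mitochondrial chaperonin, had the lowest log2 fold change, -1.11 (SE 0.30, adjusted p = 0.999, limma). It measured 117, 130 and 164 FPKM in ZD2, ZD3 and ZD12 and 68.3, 66.5 and 52.9 FPKM in ZD5, ZD7 and ZD8. All LLS ovaries were below all SLS ovaries, as for 3.17% of all genes, and also without ZD8, as for 11.7% of all genes. With 6 ovaries this held for 1 of the 5 tested genes in this list and for 0 of the 8 cytosolic subunits. The log2 fold change of HSPE1 was -0.999 without ZD8 (adjusted p = 0.255, limma). BBS12, a chaperonin-like protein of cilia, was the highest with 0.31 (SE 0.35) and at -0.03 without ZD8. CCT6B, the testis form of the zeta subunit, was at 0.04 to 0.62 FPKM and below the filter, far under the level of CCT6A. The regulators HSF1, HSF2 and MYC had log2 fold changes of 0.03 to 0.05 (-0.21 to -0.02 without ZD8) and a median r with TCP1 of 0.02 (0.36 without ZD8).

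**Figure D5:**
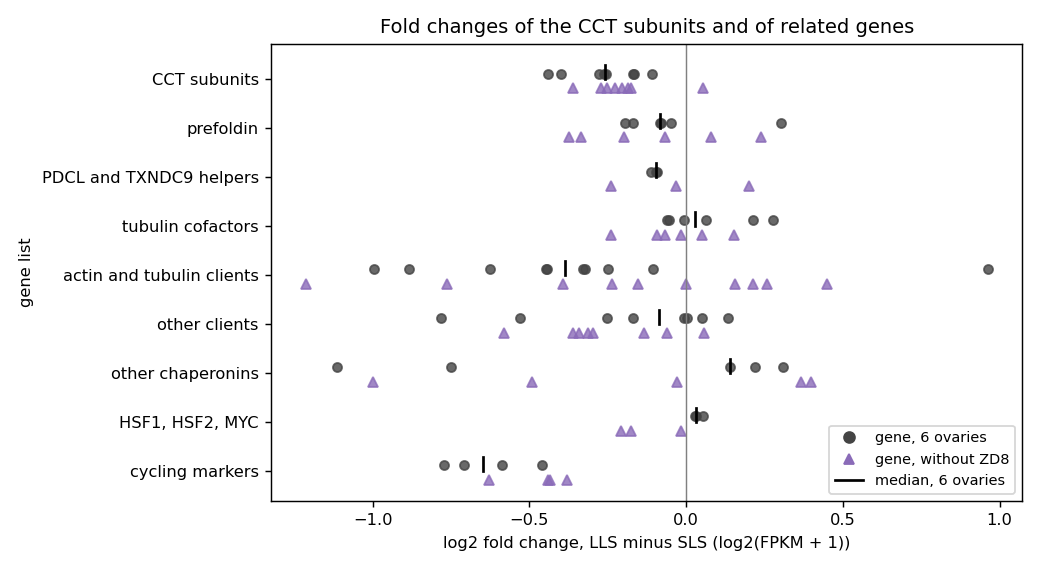
Log2 fold change (LLS minus SLS) of each tested gene in the CCT ring and in the lists around it, with circles for 6 ovaries, triangles for the fit without ZD8 and a black bar for the median of the circles. The 8 subunits lie between -0.44 and -0.11 with 6 ovaries, inside the spread of their actin and tubulin clients (-0.99 to 0.96).

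The genes beside TCP1 on chromosome 1 ranked the ovaries in other ways than TCP1 did. MRPL18, started 103 bases away, measured 25.9, 20.3 and 24.7 FPKM in SLS and 16.2, 14.7 and 20.1 FPKM in LLS. The LLS ovaries all lay below the SLS ovaries (as for 3.17% of all genes), by a narrow gap between ZD8 and ZD3. MRPL18 had a log2 fold change of -0.46 (SE 0.26, adjusted p = 0.999, limma), or -0.58 without ZD8, and r = 0.35 with TCP1. ACAT2, which overlaps the last bases of TCP1, measured 126, 126 and 58.0 FPKM in ZD2, ZD3 and ZD12 and 131, 198 and 7.98 FPKM in ZD5, ZD7 and ZD8. The low value was that of ZD8, and ACAT2 spanned a far wider range than TCP1. Its log2 fold change of -0.67 (SE 1.04) turned to 0.72 without ZD8, and its r with TCP1 turned from 0.43 to -0.62.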

How the data were processed

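Ovaries of 6 sows (3 SLS and 3 LLS, by the GEO labels) were analysed. For genes, the authors trimmed reads with NGSQCToolkit, mapped them to Sscrofa11.1 with HISAT2 and deposited FPKM. The counting program is not given in the sources used here. For miRNAs, the authors deposited RPM, computed from library totals, with BWA named in the submitters' processing notes. Values of small RNA were tied to gene libraries by the ZD number that heads their columns, and the same number was taken to mean the same ovary.

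Genes with at least 1 FPKM in at least 3 libraries were tested with limma 3.58.1 (R 4.3.3) with a trended variance on log2(FPKM + 1). The p-values were adjusted by Benjamini-Hochberg over 12260 genes and called at 0.05 with an absolute log2 fold change over 1. The pseudocount of 1 understates changes of low genes. Correlations used log2 values and an exact two-sided permutation test over 720 orders of the ovaries, adjusted over 12259 genes or 353 miRNAs. Whole reads were recovered from FPKM with the longest annotated transcript for 23477 of 23546 genes above 0 (tolerance 0.001), and edgeR 4.0.16 and DESeq2 1.42.0 were run on them as alternatives. Depths are given with the results. The tests were checked on simulated data. The members, the gene lists and the alternatives were chosen with earlier results of these data known. The named genes were the members, the 5 genes most like TCP1 with and without ZD8, MRPL18, ACAT2, miR-183 with the miRNAs of highest and lowest r, and in each list around the chaperonin the genes with the highest and lowest log2 fold change. A gene that this rule names is not reported here.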

Additional observations from a re-analysis of the deposited data

How the results depend on the processing

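No alternative called a CCT subunit. Of 128 alternative fold changes of the 8 subunits 125 kept their direction and their side of the threshold, with a lowest adjusted p of 0.517. Their median, -0.26, was -0.11 with quantile normalization (TCP1 at -0.15) and -0.14 without ZD12. The sign turned for CCT3 with array weights (0.0081) and, over the fits that left out 1 ovary each (-0.31 to 0.055), without ZD8, and for CCT4 with quantile normalization (0.0367). Of 98 alternative correlations of TCP1 with its partners 96 kept their direction, and none passed where a test was made (lowest adjusted p 0.361). The tests on 4 or 5 ovaries allow few orders and say nothing of stability. The size of r moved with the scaling, from 0.65 to 0.13 for CCT6A and from 0.71 to 0.41 for CCT8 with quantile normalization, and to 0.84 and 0.84 with median centring, and the median r of the 7 partners was 0.39 without ZD12. Leaving out 1 ovary each gave -0.0454 to 0.81 for CCT4 and -0.0414 to 0.89 for CCT5, reversed without ZD12, and -0.63 to 0.63 for miR-183, reversed without ZD8. Without the 2 ovaries farthest from the median of TCP1, r with miR-183 was -0.18. Among all genes, 0 were called, against 13 with array weights and 20 with DESeq2. With an unadjusted p under 0.05 (limma) and a log2 fold change beyond 1, there were 99. The fits that left out 1 ovary each called 0 to 20, with the 20 without ZD8. The cause was not tested. Array weights moved the median of all genes to -0.12. With 3 ovaries a group, the SEs of the log2 fold changes of the subunits were 0.27 to 0.33, and no member had fewer than 2428 reads in an ovary. No paired analysis was possible because the SLS and LLS ovaries share no numbers.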
